A study of Mus musculus with 12 samples.

Results

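The 7 genes described here, Msmo1, Nsdhl, Hsd17b7, Erg28, Ebp, Sc5d and Dhcr7, code for proteins of the late steps of cholesterol synthesis, in which methyl groups are taken off the sterol ring and its double bonds are moved and reduced. They were taken by symbol from the deposited count table, and all 7 were among its 27105 genes and among the 13995 that passed the filter on low counts. The libraries came from mouse liver, 6 from mice fed a ketogenic diet (ketogenic 1 to 6) and 6 from mice fed a control diet (control 1 to 6), described by the series as biological replicates. A ketogenic diet is low in carbohydrate and rich in fat. The sources used here do not state what the diets were made of, how long they were fed, or the strain, sex and age of the mice.

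Cholesterol is built from acetyl-CoA through mevalonate, squalene and the first sterol, lanosterol. After the methyl group at carbon 14 of lanosterol has been removed and the double bond this leaves reduced, a complex in the endoplasmic reticulum removes the methyl groups at carbon 4. Msmo1 oxidises such a methyl group, Nsdhl removes the resulting carboxyl group, Hsd17b7 reduces the ketone left at carbon 3, and Erg28 is a membrane protein that in yeast holds this complex together. Ebp then moves a double bond of the ring system, Sc5d introduces another, and Dhcr7 reduces one to leave cholesterol or, where the side chain is still unsaturated, desmosterol. Most genes of the pathway are known as targets of SREBP-2, a transcription factor released from the endoplasmic reticulum when its membrane is low in sterols. Liver is a main site of the pathway.

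Library totals were 30.2 to 33.5 M counts, and the 7 genes had 468 to 21979 counts in a library, so counting error was small beside the spread between livers. Ketogenic 4 stood apart, with a median correlation of 0.951 to the other ketogenic libraries, against 0.978 to 0.984 for the rest of that diet. Its deviation from the other libraries also fell with the exon length of the gene (Spearman rho across genes -0.496, against -0.310 to 0.312 elsewhere). Of the hepatocyte markers Alb, Ttr, Apoa1, Apob, Cps1 and Cyp3a11, 6 of 6 were present in every library and 0 were called between the diets by edgeR's quasi-likelihood test. Markers of Kupffer, endothelial, stellate and bile duct cells summed to 297 to 529, 285 to 353, 257 to 480 and 40.7 to 149 CPM in ketogenic libraries, against 258 to 470, 250 to 319, 249 to 438 and 40.1 to 86.2 CPM in control libraries, with 0 of 5 called in each list. Lymphocyte markers summed to 1.27 to 3.88 CPM in ketogenic and 1.56 to 3.11 CPM in control libraries, with 0 of 4 tested called. Over all genes tested, 2.34% were called higher and 1.44% lower, so 0 calls in lists this short say little about cell shares. CPM stands for counts per M (mega) counts of a library, with library sizes scaled by TMM, a method that lines up the bulk of genes between libraries. In bulk liver RNA, a change in the share of a cell type and a change in RNA per cell cannot be told apart.

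On the ketogenic diet, 6 of the 7 genes were higher and 0 were lower, by edgeR's quasi-likelihood test at a Benjamini-Hochberg adjusted p under 0.05. Among all 13995 genes tested, 2.34% were called higher and 1.44% lower. The 7 genes were chosen with earlier results of these data known. Shares of all genes are therefore given for scale and are no test of the list. The median log2 fold change of the 7 genes, ketogenic over control, was 1.50, beside -0.00 for all genes tested. In the same 6 genes every ketogenic library lay above every control library, a pattern that 2.17% of all tested genes showed. The exception was Ebp, whose diets overlapped and which was not called. The 6 calls were also made in each of the 21 alternative analyses, including those without ketogenic 4.

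**Figure D1:**
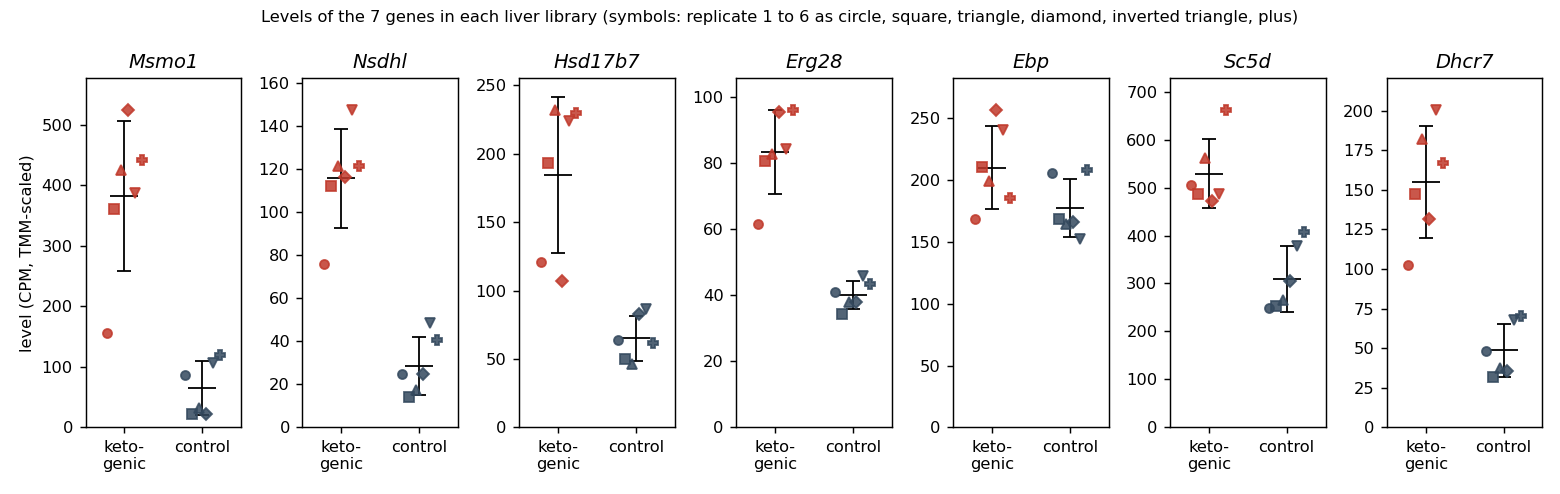
Levels of the 7 genes in each library in CPM (y axis from 0, own scale per gene), ketogenic libraries in red and control libraries in dark blue, with mean ± SD (n = 6 per diet). The ketogenic libraries of Ebp (169 to 256 CPM) overlap its control libraries (152 to 208 CPM), and those of the other 6 genes lie above all control libraries.

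Msmo1 (ENSMUSG00000031604, chromosome 8, 65171173 to 65186826, minus strand) codes for the methylsterol monooxygenase that opens the removal of the carbon 4 methyl groups. Its level was 156 CPM in the lowest ketogenic library, 406 at the median and 524 in the highest, against 21.6, 59.9 and 120 CPM in control libraries. The groups did not overlap, ketogenic 1 being the lowest of its diet with the next at 360.4 CPM, and controls 1, 5 and 6 well above controls 2, 3 and 4. Means were 382 ± 124 CPM on the ketogenic and 64.9 ± 44.8 CPM on the control diet (SD, n = 6 each). The log2 fold change was 2.56 ± 0.48 (SE, adjusted p = 0.00950), the largest of the 7 genes. Coordinates here and for the other genes are those deposited by the authors, and the sources used here name no build for them. Msmo1 also had the widest spread, a coefficient of variation of 32.5% on the ketogenic and 68.9% on the control diet.

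Nsdhl (ENSMUSG00000031349, chromosome X, 71962163 to 72002120, plus strand), the sterol dehydrogenase and decarboxylase that acts next, was at 75.9, 119 and 147 CPM in the lowest, median and highest ketogenic library. In control libraries these values were 14.3, 24.7 and 48.7 CPM. Every ketogenic library was at least 1.56 times the highest control, the widest gap among the 7 genes. Means were 116 ± 23.1 CPM on the ketogenic and 28.5 ± 13.5 CPM on the control diet. The log2 fold change was 2.02 ± 0.27 (adjusted p = 0.00103).

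Hsd17b7 (ENSMUSG00000026675, chromosome 1, 169777104 to 169796810, minus strand), the 3-ketosteroid reductase of the complex, is also known as an enzyme of oestrogen metabolism. It ran from 107 through a median of 209 to 232 CPM over ketogenic libraries, against 46.5, 63.0 and 86.3 CPM over control libraries. Ketogenic 1 and 4, at 121 and 107 CPM, were below the other 4 ketogenic libraries, which lay at 193 CPM or more. Means were 184 ± 56.7 CPM on the ketogenic and 65.3 ± 16.4 CPM on the control diet. The difference was 1.50 ± 0.22 on the log2 scale (adjusted p = 0.00185), and 1.62 without ketogenic 4.

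Erg28 (ENSMUSG00000021252, chromosome 12, 85862222 to 85871324, minus strand), the counterpart of the yeast scaffold protein, had 61.5, 83.6 and 96.2 CPM in its lowest, median and highest ketogenic library. In control libraries these values were 34.3, 39.6 and 45.8 CPM. Means were 83.5 ± 12.7 CPM on the ketogenic and 40.1 ± 4.17 CPM on the control diet. It rose by 1.06 ± 0.12 (adjusted p = 0.000260), a smaller fold than that of the 3 enzymes listed before it. Its p was the smallest of the 7 genes and the 15th smallest of all genes tested. Control libraries of Erg28 were close together, with a coefficient of variation of 10.4%.

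Ebp (ENSMUSG00000031168, chromosome X, 8051568 to 8059751, minus strand), the sterol isomerase first found as a binding protein for the drug emopamil, was at 169, 205 and 256 CPM in the lowest, median and highest ketogenic library. Its control libraries were at 152, 167 and 208 CPM. In 5 of 6 ketogenic libraries the level was above the control mean, and in 3 of 6 above the highest control. Means were 210.0 ± 33.2 CPM on the ketogenic and 177 ± 23.5 CPM on the control diet. The log2 fold change of 0.24 ± 0.12 did not pass the threshold (adjusted p = 0.362). The 95% interval of the difference ran from -0.02 to 0.51, so an increase of up to 0.51 on the log2 scale lay within the error.

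Sc5d (ENSMUSG00000032018, chromosome 9, 42162891 to 42175552, minus strand), the sterol C5-desaturase, was at 472, 496 and 661 CPM in the lowest, median and highest ketogenic library, against 248, 285 and 408 CPM in control libraries. The diets did not overlap, but the lowest ketogenic library was only 1.16 times the highest control. Means were 529 ± 72.3 CPM on the ketogenic and 309 ± 68.4 CPM on the control diet. The log2 fold change was 0.77 ± 0.15 (adjusted p = 0.00879), the smallest among the 6 genes called.

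Dhcr7 (ENSMUSG00000058454, chromosome 7, 143376882 to 143402147, plus strand), the 7-dehydrocholesterol reductase that closes this branch, was at 103, 157 and 200.3 CPM in the lowest, median and highest ketogenic library. Control libraries held 32.0, 42.8 and 70.7 CPM. The groups did not overlap, with ketogenic 1 lowest in its diet and controls 5 and 6 highest in theirs. Means were 155 ± 35.4 CPM on the ketogenic and 48.6 ± 16.9 CPM on the control diet. It rose by 1.67 ± 0.22 (adjusted p = 0.000978).

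In the order listed, the fitted fold changes ran down from Msmo1 to Ebp and up again to Dhcr7. Not all differences between neighbours passed the test of ratios given below. Of the steps before Msmo1, the lanosterol demethylase gene Cyp51 rose by 1.87 ± 0.27 (adjusted p = 0.00147). The carbon 14 reductase genes Tm7sf2 and Lbr, of which Lbr also codes for a nuclear envelope protein, were at 0.72 ± 0.19 (adjusted p = 0.0547) and 0.16 ± 0.13 (adjusted p = 0.616). Without ketogenic 4, Lbr was at 0.26 (adjusted p = 0.0976). Neither of these was called, although Tm7sf2 was called in 5 of 21 alternatives (adjusted p 0.00985 to 0.123), among them DESeq2 and the fit without control 6, at 0.84 and adjusted p = 0.0306.

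**Figure D2:**
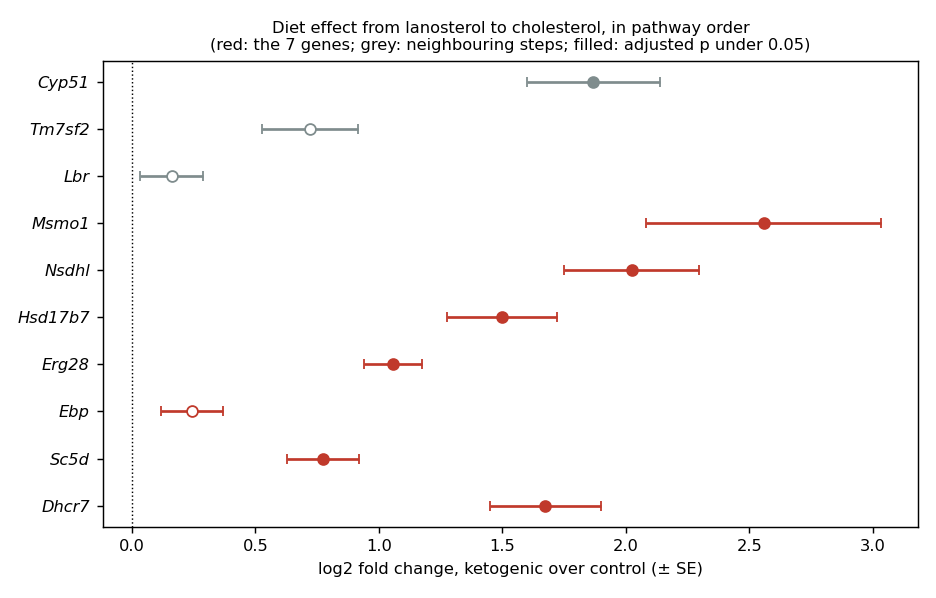
Log2 fold change, ketogenic over control, with its SE (x axis) for the 7 genes (red) and the steps before them (grey), in pathway order from top to bottom; filled points passed an adjusted p under 0.05. Among the 7 genes the values run from 0.24 for Ebp to 2.56 for Msmo1.

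Whether neighbouring genes in the order listed differed in their response was tested on the log2 ratio of their levels within each library. An exact permutation test, two-sided, took all 924 arrangements of the 12 libraries into 6 and 6. There were 6 such ratios, and their p-values were adjusted over the 6. The ratio of Erg28 to Ebp averaged -1.33 ± 0.21 on the ketogenic and -2.14 ± 0.22 on the control diet (SD, n = 6 each), a difference of 0.81 with no overlap (exact p = 0.00216, the smallest these permutations can give, adjusted p = 0.00649). The ratio of Sc5d to Dhcr7 was 1.79 ± 0.34 on the ketogenic against 2.71 ± 0.30 on the control diet, a difference of -0.92, again with no overlap (exact p = 0.00216, adjusted p = 0.00649). Ebp thus differed less between the diets than Erg28, listed before it, and Sc5d less than Dhcr7 after it, in 13 of 14 alternatives after adjustment. Erg28 is listed for its scaffold role in yeast and not as a reaction step. The enzymes listed on either side of it, Hsd17b7 and Ebp, were not compared. With the replicate number as a block, neither ratio passed (adjusted p = 0.0938 for both, at the smallest p that 6 pairs allow).

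The ratio of Nsdhl to Hsd17b7 was -0.63 ± 0.39 on the ketogenic and -1.29 ± 0.48 on the control diet (exact p = 0.0325, adjusted p = 0.0487). That of Ebp to Sc5d was -1.34 ± 0.36 against -0.78 ± 0.36 (exact p = 0.0281, adjusted p = 0.0487). Both overlapped between the diets, and both were near the threshold, passing it after adjustment in only 3 of 14 alternatives (adjusted p up to 0.141). The unadjusted p of Nsdhl to Hsd17b7 was 0.0563 to 0.0649 without ketogenic 4 or 5 or control 1, 2, 3 or 4, the difference without ketogenic 4 being 0.51 where all libraries gave 0.66. For Ebp to Sc5d the unadjusted p was 0.0519 to 0.0563 without ketogenic 1, 3 or 6 or control 1, 2 or 3. Differences of 0.69 for Msmo1 to Nsdhl (exact p = 0.0606, adjusted p = 0.0727) and 0.42 for Hsd17b7 to Erg28 (exact p = 0.108, adjusted p = 0.108) did not pass the threshold. Without ketogenic 4, that of Hsd17b7 to Erg28 was 0.61 (exact p = 0.00866, adjusted p = 0.0173), and that of Msmo1 to Nsdhl was 0.81 to 0.86 without ketogenic 1 or control 1 or 6 (exact p = 0.0260 to 0.0476, adjusted p = 0.0519 to 0.0675). Without control 4, the Msmo1 to Nsdhl difference was 0.46 (exact p = 0.121).

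**Figure D3:**
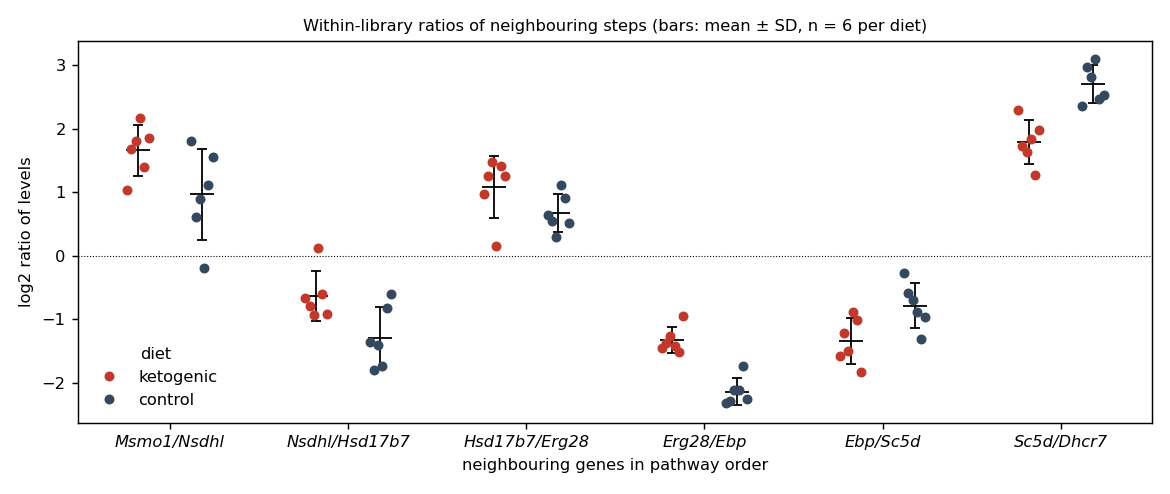
Log2 ratio of the levels of neighbouring genes (y axis) in each library for the 6 pairs in pathway order, ketogenic in red and left, control in dark blue, with mean ± SD (n = 6 per diet). The diets do not overlap for Erg28/Ebp and Sc5d/Dhcr7, and they overlap for the other 4 ratios.

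To set the genes against each other, CPM was divided by the exon length of each gene in kb, from the GENCODE M21 annotation of GRCm38 by gene ID (2310 bases for Ebp to 6144 for Msmo1). On the control diet the level per length was highest for Ebp, 76.8 ± 10.2 CPM per kb, and Sc5d, 63.6 ± 14.0, whose ranges overlapped (SD, n = 6). Far below followed Hsd17b7, Msmo1, Nsdhl, Erg28 and Dhcr7, at 12.8 ± 3.21, 10.6 ± 7.29, 9.98 ± 4.73, 9.48 ± 0.985 and 8.36 ± 2.91 CPM per kb, all 5 with overlapping ranges. On the ketogenic diet Sc5d came first with 109 ± 14.9 CPM per kb and Ebp next with 90.9 ± 14.4, again with overlap. Msmo1 followed at 62.2 ± 20.2, Nsdhl at 40.6 ± 8.10, Hsd17b7 at 36.1 ± 11.1, Dhcr7 at 26.7 ± 6.09 and Erg28 at 19.7 ± 2.99 CPM per kb, each overlapping its neighbour in this order. The 2 genes that were highest on the control diet had the 2 smallest fold changes, where the control level is also the base of the fold change. A link between the 2 was not tested. With the longest transcript as the length, Ebp and Sc5d were again the top 2 on the control diet. Msmo1 was then first on the ketogenic diet (129 ± 41.9 CPM per kb), and Sc5d was 3rd (110 ± 15.1). Dhcr7 was then 4th on both diets, at 17.3 ± 6.02 CPM per kb on the control and 55.1 ± 12.6 on the ketogenic diet. The order of the genes thus depended on the length used.

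**Figure D4:**
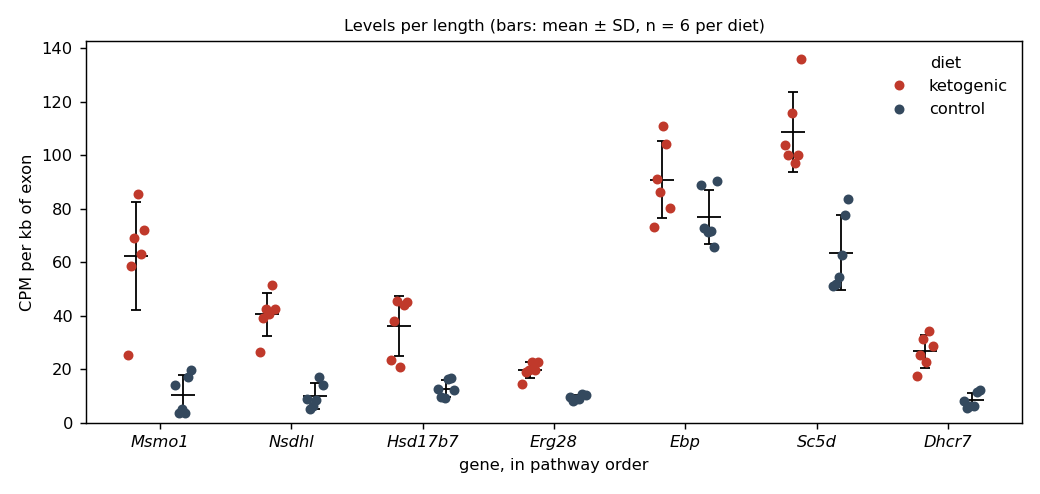
CPM per kb of exon (y axis from 0) in each library for the 7 genes in pathway order, ketogenic in red and left, control in dark blue, with mean ± SD (n = 6 per diet). On the control diet Ebp and Sc5d lie at 51.0 CPM per kb or more and the other 5 genes at 19.6 CPM per kb or less.

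Within a diet, several of the genes were high or low in the same livers. Ketogenic 1 was the lowest ketogenic library in 5 of the 7 genes (Msmo1, Nsdhl, Erg28, Ebp and Dhcr7), and ketogenic 4 in the other two, Hsd17b7 and Sc5d. Ketogenic 4 was at the same time the highest in Msmo1 and Ebp. On the control diet, control 6 was highest in 4 genes and control 5 in 3, while control 3 lay above the median of its diet in 0 of the 7. Msmo1 deviated from its control mean by 1.24 log2 units in control 6 and by -1.23 in control 4. For Erg28 the deviations of all control libraries lay between -0.22 and 0.20.

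**Figure D5:**
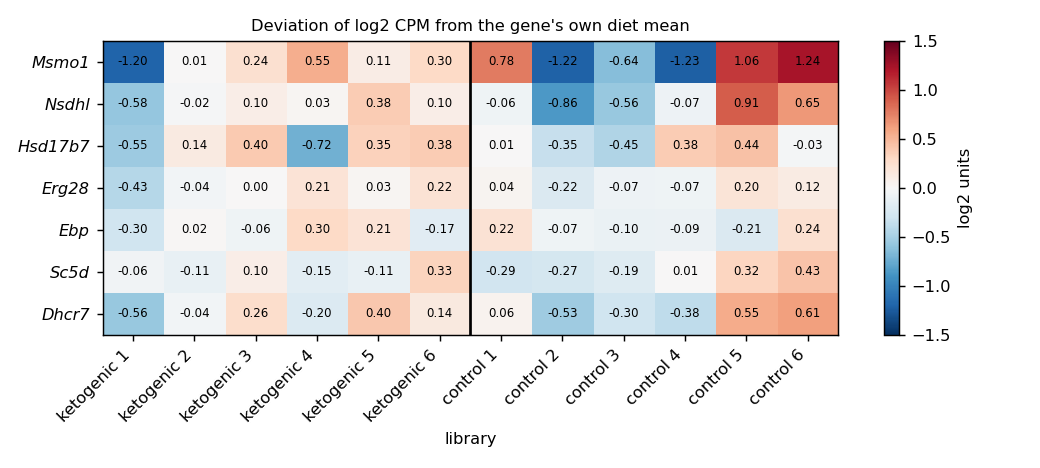
Deviation of log2 CPM from the mean of the gene's own diet, in log2 units (colour and printed value), for the 7 genes (rows) in 6 ketogenic (left) and 6 control libraries (right). In ketogenic 1 all 7 genes are below their mean, with deviations of -0.06 for Sc5d to -1.20 for Msmo1, and in controls 5 and 6 all but 1 gene are above (Ebp in control 5 and Hsd17b7 in control 6 are below).

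Over the 12 libraries, the deviations from the diet mean were compared with those of 11656 other genes by Pearson correlation, given as a description without a test since so many were searched. The mean of the 7 standardised deviations was most like Cyp51 (r = 0.939), the squalene cyclase gene Lss (0.936), the isoprenoid isomerase gene Idi1 (0.934), the chromatin protein gene Mphosph8 (0.926) and the squalene synthase gene Fdft1 (0.923). Taken one by one, the nearest gene, where reported, was the mevalonate decarboxylase gene Mvd for Msmo1 (r = 0.984), the retinol dehydrogenase gene Rdh11 for Nsdhl (0.938), the exoribonuclease gene Dis3l2 for Hsd17b7 (0.895) and the sphingomyelinase gene Smpd3 for Erg28 (0.915). For Sc5d it was the formin gene Fmn1 (r = 0.922) and for Dhcr7 Lss (0.956). Against the mean of the other 6 members, r was 0.926 for Dhcr7, 0.920 for Nsdhl, 0.849 for Msmo1, 0.791 for Erg28, 0.556 for Sc5d, 0.468 for Hsd17b7 and 0.245 for Ebp. Values of different genes in a library share its depth and scaling, and in Hsd17b7 and Sc5d ketogenic 4 was the lowest of its diet.

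Promoters of the genes were read from RefSeq on GRCm38.p6, 250 bases before to 50 after each annotated start. All 7 genes had an entry, and Dhcr7 had 3. They are printed 5′ to 3′ on the strand of the gene for Msmo1 and Nsdhl, the 2 largest rises, for Erg28, which rose with the smallest p, and for Ebp, which was not called. Capitals mark CCAAT, the NF-Y motif, and GGGCGG, the Sp1 motif, on either strand (as ATTGG and CCGCCC on the other).
Msmo1, chr8:64733529-64733828, minus strand: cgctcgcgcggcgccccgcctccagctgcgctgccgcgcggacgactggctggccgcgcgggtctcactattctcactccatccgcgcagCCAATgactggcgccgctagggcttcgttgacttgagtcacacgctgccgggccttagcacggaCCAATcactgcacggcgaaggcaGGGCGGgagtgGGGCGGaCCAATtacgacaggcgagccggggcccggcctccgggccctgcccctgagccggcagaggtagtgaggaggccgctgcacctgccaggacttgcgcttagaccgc
Nsdhl, chrX:72918271-72918570, plus strand: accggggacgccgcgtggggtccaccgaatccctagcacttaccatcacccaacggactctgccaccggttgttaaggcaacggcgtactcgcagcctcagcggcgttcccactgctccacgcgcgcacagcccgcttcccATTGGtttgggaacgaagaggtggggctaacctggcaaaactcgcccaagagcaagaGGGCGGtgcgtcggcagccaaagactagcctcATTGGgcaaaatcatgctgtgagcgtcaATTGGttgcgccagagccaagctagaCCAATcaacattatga
Erg28, chr12:85824844-85825143, minus strand: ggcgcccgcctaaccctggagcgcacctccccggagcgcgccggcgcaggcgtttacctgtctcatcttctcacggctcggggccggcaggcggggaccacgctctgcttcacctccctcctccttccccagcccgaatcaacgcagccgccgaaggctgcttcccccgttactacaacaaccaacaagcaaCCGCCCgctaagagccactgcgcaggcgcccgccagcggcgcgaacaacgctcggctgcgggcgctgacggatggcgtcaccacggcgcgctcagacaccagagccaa
Ebp, chrX:8193463-8193762, minus strand: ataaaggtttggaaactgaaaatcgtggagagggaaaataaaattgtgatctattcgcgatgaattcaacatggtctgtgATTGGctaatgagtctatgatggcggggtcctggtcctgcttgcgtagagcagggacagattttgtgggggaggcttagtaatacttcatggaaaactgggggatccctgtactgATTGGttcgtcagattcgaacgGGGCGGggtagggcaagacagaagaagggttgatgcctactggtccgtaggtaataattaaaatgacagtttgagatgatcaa
NF-Y and Sp1 are general promoter factors known to work with SREBP proteins at sterol genes. CCAAT was found in 6 of the 7 genes, Erg28 being the one without it, and for Dhcr7 only in the last of its 3 windows. It was in 41.1% of 27025 genes with a promoter entry, counted whether or not they passed the filter on low counts. GGGCGG was found in 7 of 7, against 38.2% of all genes. A match is a run of letters, not a shown site. The letters TCACNCCAC, a form of the sterol regulatory element, were in 0 of the 7 genes and in 1.44% of all genes, which says only that these letters are not in these windows. In the printed windows, Msmo1 had CCAAT 3 times and GGGCGG 2 times upstream of its start, and Nsdhl had CCAAT 4 times in either direction. Ebp had CCAAT 2 times and GGGCGG 1 time. Whether these letters bear on the response to diet was not tested. GC content of the window was 45.3% for Ebp and 58.3 to 70.7% for the first window of the other genes, beside a median of 52.7% over all windows.

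In the coordinates of the deposited table, 4 of the 7 genes had a gene on the opposite strand that starts within 1000 bases upstream, as did 13.7% of the 12952 protein-coding genes tested. No other gene of the table overlapped any of the 7. The neighbours, chosen after their values were seen, were Cetn2 beside Nsdhl (starts 146 bases apart), the lncRNA gene 3110045C21Rik beside Hsd17b7 (168), Ttll5 beside Erg28 (109) and Nadsyn1 beside Dhcr7 (296). 3110045C21Rik rose with Hsd17b7, with 3.36 ± 1.48 CPM on the ketogenic and 0.909 ± 0.337 CPM on the control diet, a log2 fold change of 1.88 ± 0.35 (adjusted p = 0.00847). Since the strand setting of the counts is not given, reads that run past an annotated start could count for either gene of such a pair. The centrin gene Cetn2 was at 0.64 ± 0.17 (adjusted p = 0.0554) and was called in 6 of 21 alternatives, among them the fits without ketogenic 1 (0.75, adjusted p = 0.0149) and without ketogenic 4 (0.46, adjusted p = 0.0434). Ttll5, a tubulin ligase gene, at 0.37 ± 0.19 (adjusted p = 0.377), and Nadsyn1, which makes NAD, at 0.19 ± 0.15 (adjusted p = 0.580), were not called. Without control 6, Nadsyn1 was at 0.097 (adjusted p = 0.785).

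The rest of the pathway with its regulators and sterol uptake genes held 22 genes tested. On the ketogenic diet 13 of 22 were higher, 0 were lower and 9 were not called, where 2.34% of all genes tested were called higher. This list was also chosen with earlier results of these data known, so that share is no test of it. The median log2 fold change of the 22 was 1.38 beside -0.00 for all genes. Without ketogenic 4, 11 were called. Srebf2, which codes for SREBP-2, rose by 0.78 ± 0.16 (adjusted p = 0.0128), close in size to Sc5d. The sterol transfer gene Stard4 rose by 0.72 ± 0.15 (adjusted p = 0.0156). Upstream of the 7 genes, the synthase gene Hmgcs1 rose by 2.46 ± 0.35 (adjusted p = 0.00147) and Lss by 1.92 ± 0.27 (adjusted p = 0.00126). Squalene epoxidase gene Sqle, with a fitted 1.89 ± 0.53 (adjusted p = 0.0726), and Insig1, which retains SREBP in the endoplasmic reticulum, with 1.05 ± 0.38 (adjusted p = 0.161), did not pass. Without control 6 both were called, at 2.19 (adjusted p = 0.0486) and 1.45 (adjusted p = 0.0211), and both were called by DESeq2 (adjusted p = 0.0131 and 0.0446).

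Msmo1 and Sc5d use oxygen and electrons passed on by cytochrome b5. Of 10 genes listed for this supply and its relatives, 8 were tested, and 1 was lower, 0 were higher and 7 were not called. Over all genes tested, 1.44% were called lower and 2.34% higher, and a list of 8 is too short to be told apart from these shares. Cyb5r3, the cytochrome b5 reductase, was at 367 ± 36.7 CPM on the ketogenic and 514 ± 59.0 CPM on the control diet, a log2 fold change of -0.48 ± 0.11 (adjusted p = 0.0206). That call was lost without ketogenic 3 or 6 (-0.46 in both, adjusted p = 0.0552 and 0.0553), with library size as the scale (-0.42, adjusted p = 0.0600), with no filter on low counts (adjusted p = 0.0562) and with the replicate number as a block (-0.48, adjusted p = 0.0726). The cytochrome b5 gene Cyb5a was at 709 ± 158 CPM on the ketogenic and 528 ± 56.7 CPM on the control diet (0.42 ± 0.14, adjusted p = 0.120). Por, the P450 reductase that serves Cyp51, was at 445 ± 118 CPM on the ketogenic and 288 ± 73.5 CPM on the control diet (0.63 ± 0.20, adjusted p = 0.107). Neither was called, though Por was by DESeq2 (adjusted p = 0.0424) and Cyb5a with library size as the scale (adjusted p = 0.0493).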

How the data were processed

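RNA from 12 mouse livers, 6 per diet, was sequenced. The authors deposited 1 table of raw counts per gene and library, not normalized and not pooled. Per the submitters' processing notes, HISAT2 2.1.0, StringTie 1.3.4d, Cufflinks and fastp 0.19.3 were used, with no role stated. Counter, strand setting, annotation and build: not given in the sources used here. Whether molecular identifiers were used or amplification copies removed is not stated either. All 12 count columns were matched to samples by title.

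Counts were filtered with filterByExpr by diet (13995 of 27105 genes kept), scaled by TMM and tested with edgeR 4.0.16 in R 4.3.3 (robust glmQLFit and glmQLFTest, diet as the only term), with Benjamini-Hochberg adjustment over all genes tested and calls at an adjusted p under 0.05. The SE is the log2 fold change divided by the square root of F, and intervals use the t quantile of the fit. Ratios added 0.5 to each count, and permutation tests used SciPy 1.17.1. Log2 CPM for deviations had a prior count of 2. The gene lists, the 7 genes included, were chosen with earlier results of these data known. The text names all 7, tested genes of the 2 lists, the genes most alike by correlation (mean of at least 1 CPM, no Gm or Rik name) and genes with a divergent start beside a member. Results on some of these genes are not reported here. In each diet no duplicate libraries were found (lowest chi-square per degree of freedom 33.3 over 30 pairs). The edgeR fit was also run on simulated counts with known changes. P-values set the difference between the diets against the spread between these samples. Alternatives were DESeq2 1.42.0, limma-voom (limma 3.58.1), RLE factors, library size only, no filter, at least 1 CPM in 6 libraries, the replicate number as a block, removal of the 10 most abundant genes, each library left out and, chosen after seeing the data, correction of deviations for a trend with transcript length per library (spline, 4 degrees of freedom).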

Additional observations from a re-analysis of the deposited data

Results flagged for a closer look

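Of 80 sets of 6 libraries examined (the levels of the 7 genes, of 19 of the other cholesterol genes and of the 8 electron carriers tested, and the 6 ratios, per diet), 9 held 1 library far from the other 5, where chance gives about 1 in 20. None of them was the level of one of the 7 genes. Among the ratios, log2 Nsdhl/Hsd17b7 was 0.12 in ketogenic 4, against -0.93 to -0.61 in the other ketogenic libraries, and log2 Erg28/Ebp was -1.73 in control 5, against -2.32 to -2.11 in the other controls.

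Ketogenic 1 was far below the other ketogenic libraries in Cyp51 (225 CPM, next 427) and Hmgcs1 (279.8 CPM, next 811), and above them in Cyb5b (691 CPM, next 574). Ketogenic 4 was apart in Lbr (10.5 CPM, next 15.5), Cyb5a (1011 CPM, next 686), Cyb5r1 (14.1 CPM, next 10.3) and Pgrmc1 (1650 CPM, next 1192). Why these libraries stand apart was not tested.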

How the results depend on the processing

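Under all 21 alternatives the 6 calls among the 7 genes were made and Ebp was not called. The log2 fold changes ran from 2.38 to 2.83 for Msmo1, 1.89 to 2.25 for Nsdhl, 1.43 to 1.62 for Hsd17b7, 1.01 to 1.14 for Erg28, 0.18 to 0.31 for Ebp, 0.70 to 0.87 for Sc5d and 1.58 to 1.81 for Dhcr7, and the highest adjusted p among the 6 was 0.0427, for Msmo1 with no filter. Calls over all genes numbered 529, but 1028 with DESeq2, 268 with the replicate block and 319 (without control 3) to 761 (without ketogenic 4) with a library left out. With library size as the scale 448 rose and 127 fell, against 328 and 201. The other cholesterol genes gave 10 to 16 calls. Electron carriers gave 2 calls with DESeq2, 0 with no filter, 0 with the block and 0 to 1 with a library left out. Cyb5r1, not called, was at -0.01, but at 0.063 with library size as the scale and ran from -0.12 to 0.076 with a library left out.

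Deviations of same-numbered libraries of the diets correlated at r from -0.29 to 0.34, and 2 of 6 ketogenic libraries correlated best with their own number. These correlations cannot settle whether the numbers pair the libraries, and the sample titles do not say. With the replicate block, the Nsdhl to Hsd17b7 difference of 0.66 and the Ebp to Sc5d difference of -0.55 did not pass (exact p = 0.0938 in both, where 0.0312 is the smallest 6 pairs allow). There the Erg28 to Ebp and Sc5d to Dhcr7 differences had the smallest p, with an adjusted p of 0.0938, and in the other 13 alternatives both passed after adjustment. With a library left out, the differences ran from 0.46 to 0.86 for Msmo1 to Nsdhl, 0.51 to 0.80 for Nsdhl to Hsd17b7, 0.34 to 0.61 for Hsd17b7 to Erg28, 0.73 to 0.89 for Erg28 to Ebp, -0.66 to -0.45 for Ebp to Sc5d and -1.02 to -0.82 for Sc5d to Dhcr7. The cause of these changes was not tested.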
